A study of Mus musculus with 6 samples.

Results

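The genes described here encode the subunits of the mitochondrial respiratory chain (complexes I to IV) and of ATP synthase (complex V), together with a few assembly factors that share their names. They were chosen by name alone, from every non-control probe whose gene name in the array annotation begins with Nduf, Uqcr, Atp5 or Cox4 to Cox8, or is Sdha, Sdhb, Sdhc or Sdhd, with Cox4nb left out. The choice held 134 of the 41174 probes on the array and 92 of its 27376 gene names, and each gene was represented by the probe that was brightest on average over all 6 arrays. Of the 92 genes, 44 were grouped with complex I, 4 with complex II, 8 with complex III, 18 with complex IV and 18 with complex V. These groups include assembly factors, associated factors and 1 pseudogene.

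The cells were induced regulatory T cells (iTreg cells), which are made in culture from naive CD4 T cells and carry the transcription factor Foxp3. Naive CD4+CD25-Foxp3gfp-CD62Lhi cells were sorted from the spleens of 6-week-old C57BL/6 mice. For 4 days they received TGF-β1 at 5 ng/ml and, as the labels state, IL-2 at 40 ng/ml, while plate-bound anti-CD3 (5 μg/ml) and soluble anti-CD28 (2 μg/ml) activated them. The question asked by the comparison was which transcripts differ when these cells lack the microRNA miR-31. The 3 cKO cultures came from miR-31 fl/fl CD4Cre mice, in which Cre under the CD4 promoter removes the floxed gene in T cells, and the 3 control cultures came from miR-31 fl/fl mice without Cre. CD4Cre is active from T cell development in the thymus onwards. Each of the 6 cultures was hybridised to a separate Agilent array with a single dye. For orientation, the mature arm of the deleted microRNA is shown as given by RefSeq (GRCm38.p6, chr4:88910614-88910635, minus strand), with the seed, bases 2 to 8, in capitals.
mmu-miR-31-5p: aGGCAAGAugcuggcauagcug

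Complex I takes electrons from NADH and complex II takes them from succinate. Both pass them through ubiquinone to complex III and then through cytochrome c to complex IV, which reduces oxygen. Complexes I, III and IV pump protons, and ATP synthase uses the resulting gradient to make ATP. T cells enlarge this machinery after activation, and regulatory T cells are known for relying on oxidative metabolism more than other activated T cells do.

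All signals are given as log2 of the background-subtracted signal relative to the 75th percentile of the same array, so 0 is the level of a fairly bright probe. Since probes bind with different strength, a signal is compared between arrays and never between genes. Markers of the labelled cell type were present. All 11 of the T cell and regulatory T cell markers examined were well above background on all 6 arrays, against 5 of 24 markers of CD8 T, B, NK, myeloid, erythroid, epithelial and muscle cells. These were Hbb-b1 (log2 fold change 2.10 ± 0.64, cKO minus control), Epcam (0.61 ± 0.18), Cd79b (0.60 ± 0.36), Cd8b1 (-0.18 ± 0.18) and Cd8a (-0.86 ± 0.41), of which none passed the adjusted threshold and the groups of Hbb-b1 and Epcam did not overlap. The summed level of the 4 erythroid markers was -1.06 to 0.06 in cKO and -2.36 to -1.39 in control cultures, that of the 3 epithelial markers -1.10 to -0.62 and -1.52 to -1.21, and that of the 2 CD8 markers 1.95 to 2.12 and 2.14 to 2.49. Alas2 and Krt8 were not well above background on any array. The part of these cells in the results below was not tested. Foxp3 itself gave 3.16, 3.12 and 2.45 on the cKO arrays and 3.42, 3.42 and 3.76 on the control arrays, a difference of -0.62 with an adjusted p of 0.192 in limma. Of the other regulatory T cell markers, Il2ra lay at -0.56, while Ctla4 (0.94, adjusted p = 0.135), Ikzf2 (0.51) and Tnfrsf18 (0.40) lay above 0. The summed level of the 6 T cell markers ranged from 7.42 to 7.74 in cKO and from 7.26 to 7.34 in control cultures, and the 2 groups did not overlap. Of the 6 markers, 4 lay above 0, namely Cd3g (0.74 ± 0.25), Cd4 (0.66 ± 0.21), Cd28 (0.43 ± 0.17) and Cd3d (0.38 ± 0.14). All cKO arrays lay above all control arrays for these 4, beside 15.9% of all tested probes. The other 2 lay below 0, Lck at -0.09 ± 0.10 and Cd3e, with groups that did not overlap, at -0.28 ± 0.09. None of the 6 passed the adjusted threshold. In these bulk samples, fewer cells of a type and less RNA per cell cannot be told apart. cKO array 3 stood apart from the others, with Pearson correlations of 0.948 to 0.979 to the other 5 arrays over the tested probes, against 0.967 to 0.989 among the rest, and with the lowest estimated weight (0.184, against 0.655 to 3.90). Slide 1 held the 3 cKO arrays and control array 1, and slide 2 held control arrays 2 and 3. On the measure of spatial trend in the file headers, control array 1 was the only array out of range (16.8, against 7.58 to 13.3). It also had the lowest share of spots well above background (49.3%). No probe is named for miR-31, so its loss could not be checked.

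Most respiratory chain and ATP synthase genes were strongly expressed in iTreg cells of both genotypes. Of the 92 genes, 87 were well above background on all 6 arrays, and these were the ones tested. The remaining 5 were Cox4i2, Cox6a2, Cox7b2, Cox8b and Cox8c, which are alternative forms of complex IV subunits. Only 1 gene, Cox7c, differed between the genotypes at an adjusted p under 0.05 in limma (adjusted over the 22281 probes tested), and it was lower in cKO cells, where 0.0943% of all tested probes were called lower. None was higher at that threshold in limma or in the test that the methods name with the same adjustment, beside 0.148% of all tested probes in limma. At an unadjusted p under 0.05, 9 of the 87 genes were lower and 2 were higher. The same threshold held for 11.4% of all tested probes in the lower and 11.5% in the higher direction, so that the share of lower genes (10.3%) was close to the background and the share of higher genes (2.30%) was below it.

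Small differences in the lower direction were nonetheless common. The fitted log2 fold change was below 0 for 73 of the 87 genes, whereas it was below 0 for 55.2% of all tested probes. All 3 cKO arrays lay below all 3 control arrays for 37 genes, beside 20.7% of all tested probes, and above them for 5 genes, beside 15.9%. The median log2 fold change was -0.15 over the 87 genes and -0.04 over all tested probes. By complex, the medians were -0.16 for complex I, -0.13 for complex II, -0.19 for complex III, -0.07 for complex IV and -0.17 for complex V. All but 6 of the 87 genes differed by less than 0.5 on the log2 scale.

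A large share of the shift came with 1 array. cKO array 3 gave the lowest of the 6 values for 62 of the 87 genes, beside 35.2% of all tested probes. Relative to the mean of the control arrays, the median over the 87 genes was -0.06 on cKO array 1, -0.08 on cKO array 2 and -0.32 on cKO array 3. The control arrays lay at -0.02, -0.01 and 0.03. Over all tested probes, the same medians were -0.02, -0.03 and -0.05 for the cKO arrays, so the low position of array 3 was not shared by the median of all tested probes. Other lists of mitochondrial genes, given below, shared it in part. Without cKO array 3, the median log2 fold change of the 87 genes was -0.07 and that of all tested probes -0.03, and 63 genes were below 0. With the slide as a term, these medians were -0.13 and -0.0033. Slide 2 held no cKO array, so this fit compares the 3 cKO arrays with control array 1 alone.

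**Figure D1:**
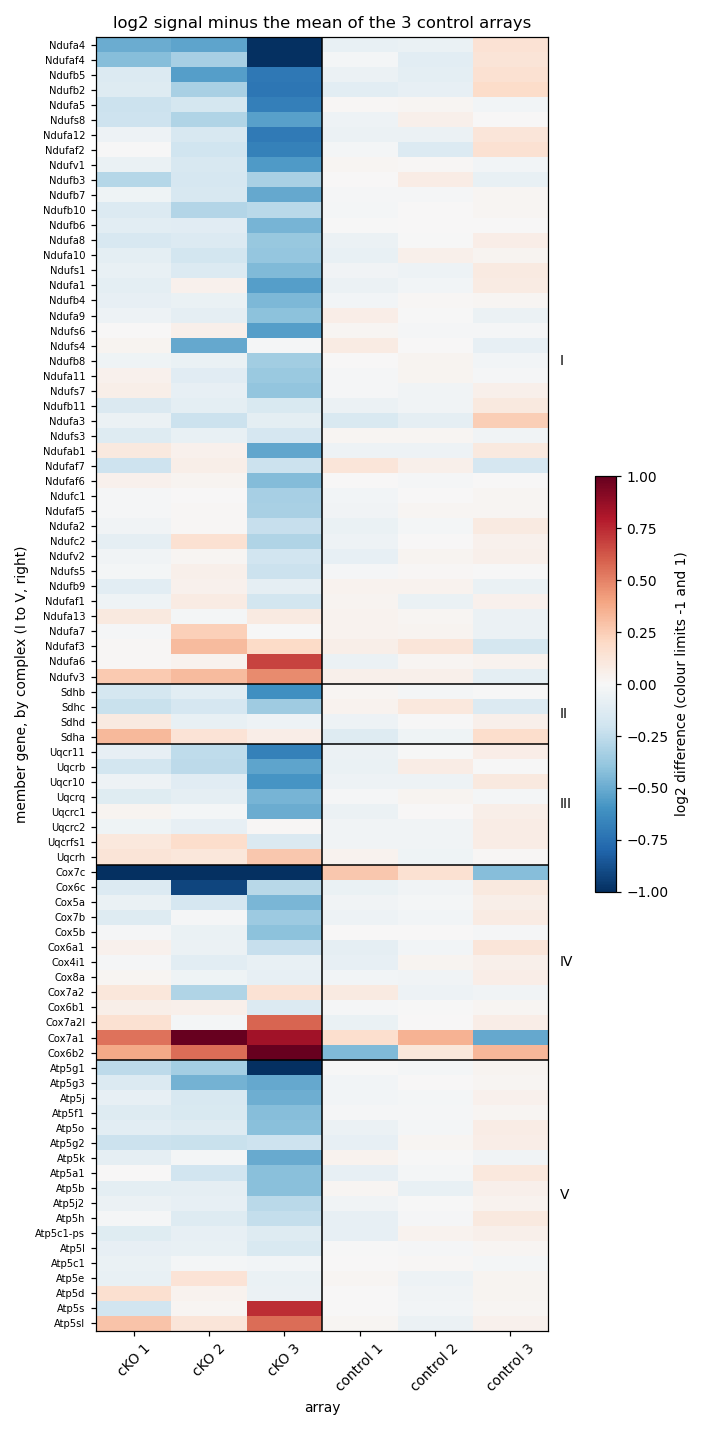
Each row is 1 of 86 of the 87 tested genes, grouped by complex, and each column is 1 array; colour gives the log2 signal minus the mean of the 3 control arrays, limited to -1 and 1. The column of cKO array 3 is blue in most rows and holds the lowest value for 62 of the 87 genes, while Cox7c is low on all 3 cKO arrays and Cox7a1 and Cox6b2 are high on all 3.

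In complex I, which couples NADH oxidation to proton pumping, 39 of the 44 genes had a fold change below 0 and none passed the adjusted threshold. The 7 core subunits that the rule holds, the proteins that carry the flavin and the iron-sulfur clusters, all lay below 0, between -0.35 and -0.07, and cKO array 3 was the lowest array for all 7. Ndufs8, a core iron-sulfur subunit, gave 2.35, 2.26 and 2.02 on the cKO arrays and 2.51, 2.61 and 2.56 on the control arrays. Its groups did not overlap, and the difference was -0.35 ± 0.12 (SE, adjusted p = 0.184). Ndufv1, which oxidises NADH on its flavin, differed by -0.27 ± 0.15 and Ndufs1 by -0.22 ± 0.13 (SE), with adjusted p of 0.321 or higher.

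The largest difference in the group named for complex I was that of Ndufa4, a protein first counted with complex I and later assigned to complex IV. Its signal was 3.93, 3.90 and 3.21 in cKO and 4.35, 4.36 and 4.57 in control cells. The groups did not overlap, array 3 was lowest, and the difference was -0.75 ± 0.22 (adjusted p = 0.155). Ndufaf4, an assembly factor of complex I, gave 1.92, 2.01 and 1.07 in cKO and 2.32, 2.23 and 2.47 in control cells. Its difference of -0.68 ± 0.26 was -0.38 without cKO array 3, and a second probe of the gene differed by -0.63. Of the accessory subunits of the membrane arm, Ndufb5 differed by -0.47 ± 0.17, with 0.94, 0.53 and 0.36 against 1.02, 0.99 and 1.23, and Ndufb3 by -0.26 ± 0.10. Both had groups that did not overlap.

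A few complex I genes lay the other way. Ndufv3, an accessory subunit of the NADH-oxidising end, gave 3.91, 3.96 and 4.12 in cKO and 3.69, 3.70 and 3.55 in control cells. The groups did not overlap, the difference was 0.35 ± 0.11 (adjusted p = 0.167), and all 3 probes of the gene lay between 0.35 and 0.56. Ndufa6, an accessory subunit, differed by 0.24 ± 0.20, with cKO array 3 at 5.26 and the other 5 arrays at 4.53 to 4.62. The assembly factor Ndufaf3 differed by 0.17 ± 0.13, with overlapping groups.

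Complex II, or succinate dehydrogenase, also serves in the citrate cycle, and its 4 genes did not all lie on the same side of 0. Sdhb, the iron-sulfur subunit, gave 3.77, 3.84 and 3.33 in cKO and 3.96, 3.92 and 3.94 in control cells, a difference of -0.30 ± 0.15. Sdhc, 1 of the membrane anchors, differed by -0.25 ± 0.11. The groups of these 2 genes did not overlap. The other anchor, Sdhd, differed by -0.011 ± 0.10. Sdha, the flavoprotein that oxidises succinate, gave 2.49, 2.30 and 2.23 in cKO and 2.03, 2.12 and 2.33 in control cells, a difference of 0.18 ± 0.13 whose direction is not settled, since the 3 probes of the gene ranged from -0.12 to 0.40. No complex II gene had an unadjusted p under 0.05.

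Complex III passes electrons from ubiquinol to cytochrome c. No core subunit had an unadjusted p under 0.05, with Uqcrc1 at -0.16 ± 0.16 (-0.32 with its second probe, whose groups did not overlap), Uqcrc2 at -0.041 ± 0.10 and the Rieske iron-sulfur protein Uqcrfs1 at 0.045 ± 0.12. Of the 5 small supernumerary subunits, Uqcr11, Uqcrb, Uqcr10 and Uqcrq lay below all control arrays on all 3 cKO arrays, beside 20.7% of all tested probes. Uqcrh, the hinge protein, lay above them (0.17 ± 0.10), beside 15.9%. Uqcrb had 4.11, 4.04 and 3.77 in cKO and 4.23, 4.37 and 4.29 in control cells, a difference of -0.32 ± 0.13 with an unadjusted p of 0.0414 and an adjusted p of 0.207. Uqcr11 differed by -0.34 ± 0.17 and Uqcr10 by -0.25 ± 0.17, both with array 3 lowest. The groups of Uqcr10 were separated narrowly (6.685 on cKO array 1, 6.688 on control array 1). Its difference was -0.35 to -0.08 after single arrays were left out.

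Complex IV, cytochrome c oxidase, held the only gene past the adjusted threshold and also the largest differences in the higher direction. Cox7c encodes a small nuclear-encoded subunit that is present in the enzyme of all tissues. The Cox7c probe gave 0.56, 0.66 and 0.86 on the cKO arrays and 3.20, 3.08 and 2.50 on the control arrays. All cKO values lay far below all control values, and control array 3 was the lowest of its group. The signal fell by 2.23 on the log2 scale (SE 0.21), 4.70-fold lower in cKO cells, with an adjusted p of 0.0444 in limma. The size of the difference was stable, from -2.50 to -2.09 over 18 other settings, but the adjusted p was not, ranging from 0.0170 to 0.371 and staying under 0.05 in 7 of them. Leaving out any 1 array, cKO or control, ended the call, with adjusted p from 0.0564 to 0.185. Against the 1 control array on the slide of the cKO arrays, the difference was -2.50.

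A second probe at the same locus lay the opposite way. The Cox7c probe (NM_007749, 60 bases) is placed by the annotation of the array on the minus strand of chromosome 13, in mm9 from 86184486 to 86185363, a span of 878 bases that therefore crosses an intron. The second probe lies 557 bases further along, from 86185921 to 86185980, towards the start of the gene. It is annotated as a partial match to the Cox7c protein under a transcript cluster name, so the naming rule did not hold it, and it was looked up after the values of Cox7c were known. This probe gave 0.99, 1.10 and 0.84 on the cKO arrays and -1.18, -1.33 and 0.37 on the control arrays. All cKO values lay above all control values, and control array 3, the lowest control array for the Cox7c probe, was the highest control array here. The difference was 1.69 ± 0.45 (SE, adjusted p = 0.142), between 1.38 and 2.23 over the same 18 settings, of which none had an adjusted p under 0.05. The 2 probes thus disagreed on direction in every setting that was run, and the fall of Cox7c is the reading of 1 probe and not of the locus. Whether the probes report different transcripts of Cox7c, different alleles or other sequences was not tested.

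**Figure D2:**
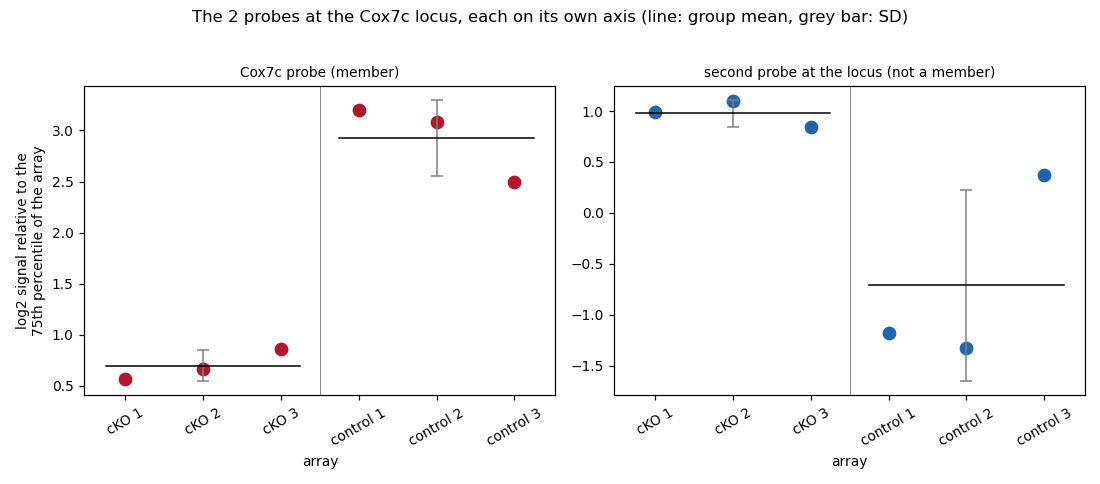
Signal (log2, relative to the 75th percentile of the array) of the 2 probes at the Cox7c locus on each of the 6 arrays, with the group mean as a line and the SD as a bar; the axes differ because signals of different probes are not comparable. The member probe is lower on the cKO arrays (0.56 to 0.86, against 2.50 to 3.20), and the second probe is higher on them (0.84 to 1.10, against -1.33 to 0.37).

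None of the other general subunits of complex IV passed the adjusted threshold. Cox6c differed by -0.45 ± 0.22, with 5.51, 4.72 and 5.37 in cKO and 5.58, 5.61 and 5.75 in control cells, so that here array 2 and not array 3 was lowest. Its groups did not overlap, and the difference was -0.21 without cKO array 2. Cox5a differed by -0.23 ± 0.13 with groups that did not overlap, and Cox4i1, the largest nuclear-encoded subunit, by -0.07 ± 0.10. All 10 genes classed as general subunits had a fold change below 0, Cox7c included, with a median of -0.12.

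Several complex IV subunits exist as pairs of genes, of which 1 is used in most tissues and the other mainly in muscle, lung or testis. The common forms Cox6a1 (-0.08 ± 0.12), Cox6b1 (-0.0080 ± 0.10), Cox7a2 (-0.014 ± 0.15) and Cox8a (-0.036 ± 0.10) all had overlapping groups. Of the tissue forms, Cox4i2, Cox7b2, Cox8b and Cox8c were not well above background on any array and Cox6a2 was so on 1, and no fold change is given for them. The other tissue forms, Cox7a1 and Cox6b2, were measured on all arrays. Cox7a1, the heart and skeletal muscle form of subunit VIIa, gave 1.61, 2.13 and 1.91 in cKO and 1.23, 1.41 and 0.55 in control cells. The groups did not overlap, and the difference was 0.82 ± 0.26, with an unadjusted p of 0.0187 and an adjusted p of 0.168. Cox6b2, the testis form of subunit VIb, gave -2.0, -1.83 and -0.59 in cKO and -2.83, -2.27 and -2.06 in control cells. Again the groups did not overlap, though narrowly, and the difference was 0.91 ± 0.41 (adjusted p = 0.240). None of the 5 muscle markers examined was well above background on as many as 3 arrays, and Ckm, the muscle creatine kinase, was so on none. Their summed level was -2.89 to -1.18 in cKO and -3.25 to -2.45 in control cells. Cox7a2l, which links complexes III and IV in supercomplexes, differed by 0.24 ± 0.17, with array 3 highest.

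**Figure D3:**
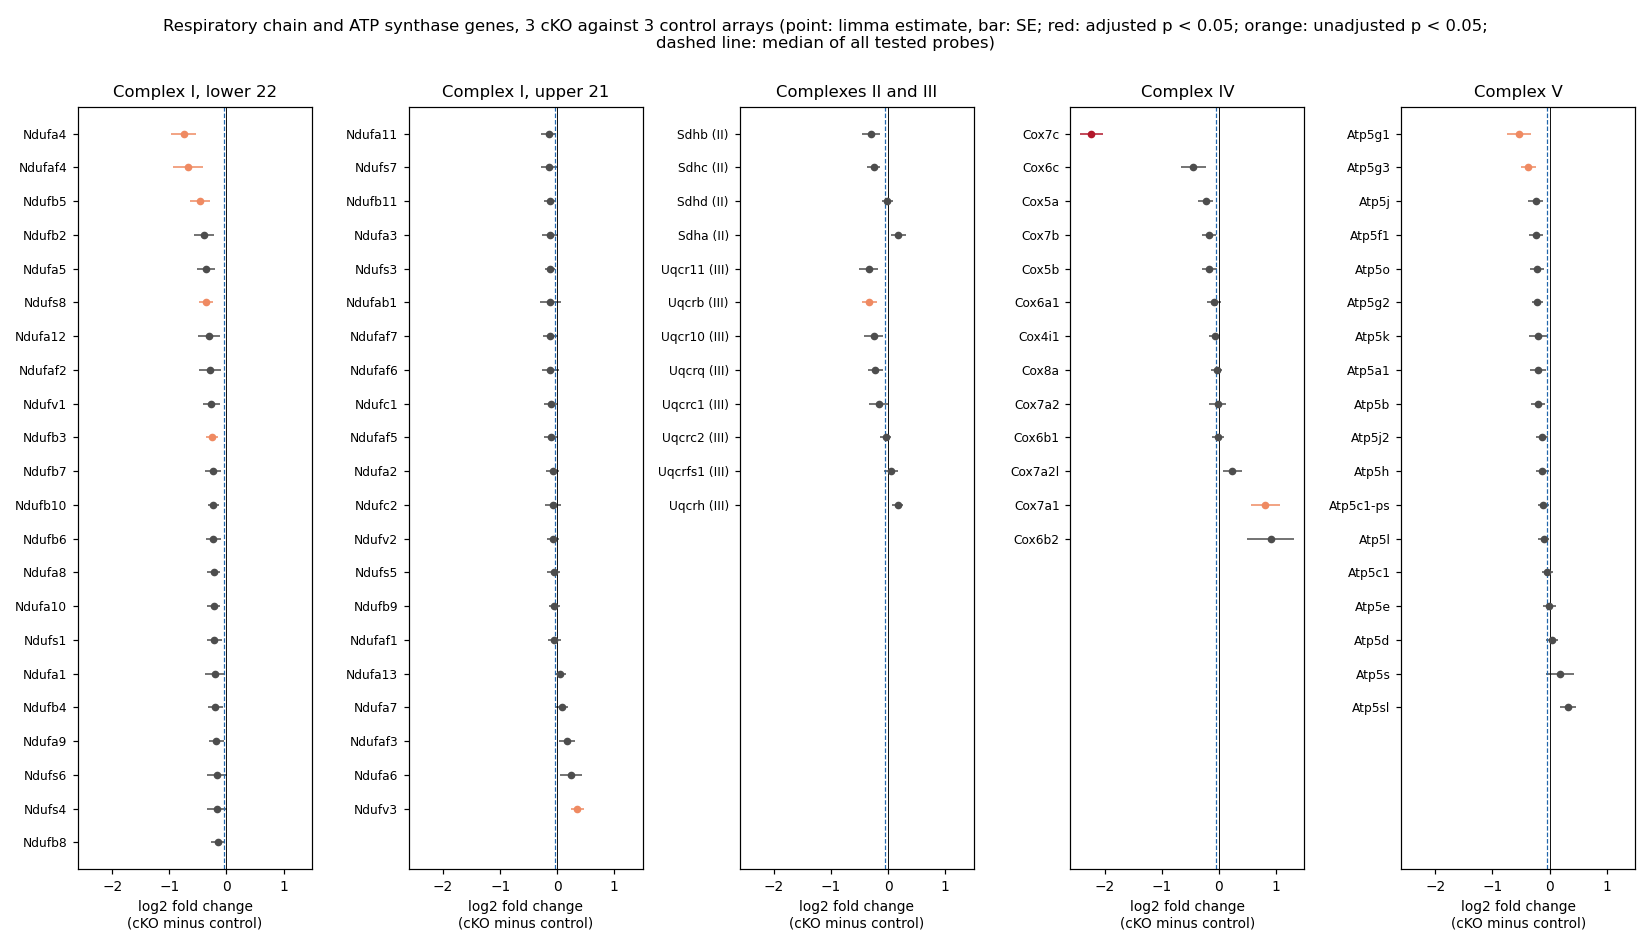
Log2 fold change (cKO minus control) of 86 of the 87 tested genes by complex, with the limma estimate as a point and its SE as a bar; red marks an adjusted p under 0.05, orange an unadjusted p under 0.05, and the dashed line the median of all tested probes. Most points lie slightly below 0, Cox7c at -2.23 stands alone on the lower side, and Cox6b2 (0.91) and Cox7a1 (0.82) lie highest.

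Among the 18 genes grouped with ATP synthase, 15 had a fold change below 0. The 18 include 2 associated factors and the pseudogene Atp5c1-ps. In the catalytic head, Atp5a1 differed by -0.20 ± 0.14 and Atp5b, the catalytic β subunit, by -0.20 ± 0.13, while Atp5d lay at 0.05 ± 0.10. Both probes of Atp5a1 and all 4 of Atp5b lay below 0, those of Atp5b between -0.41 and -0.20. The 3 genes of the c ring, the rotor through which protons pass, encode the same mature protein and were all lower on every cKO array than on any control array. The same held for 37 of the 87 genes, 5 of the 7 stalk and membrane subunits among them, and for 20.7% of all tested probes. Atp5g1 gave 4.33, 4.25 and 3.59 in cKO and 4.58, 4.56 and 4.61 in control cells, a difference of -0.53 ± 0.21 (unadjusted p = 0.0415, adjusted p = 0.207). Atp5g3 gave 6.42, 6.08 and 6.04 against 6.53, 6.56 and 6.57, a difference of -0.37 ± 0.13 (unadjusted p = 0.0276, adjusted p = 0.185). Atp5g2 gave 6.30, 6.29 and 6.31 against 6.43, 6.53 and 6.58, a difference of -0.21 ± 0.10 with all cKO arrays close together. Without cKO array 3, the difference of Atp5g1 was -0.30 and that of Atp5g3 -0.30. The 7 stalk and membrane subunits lay between -0.24 and -0.10, the first of these values being that of Atp5j, and array 3 was lowest for all 7. Atp5s, which RefSeq lists as Dmac2l, at 0.19 ± 0.24 and Atp5sl, listed as Dmac2, at 0.32 ± 0.14 were the highest of the group. Neither is counted here as a structural subunit. Both probes of Atp5sl were higher in cKO cells (0.32 and 0.64), whereas those of Atp5s differed in sign.

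**Figure D4:**
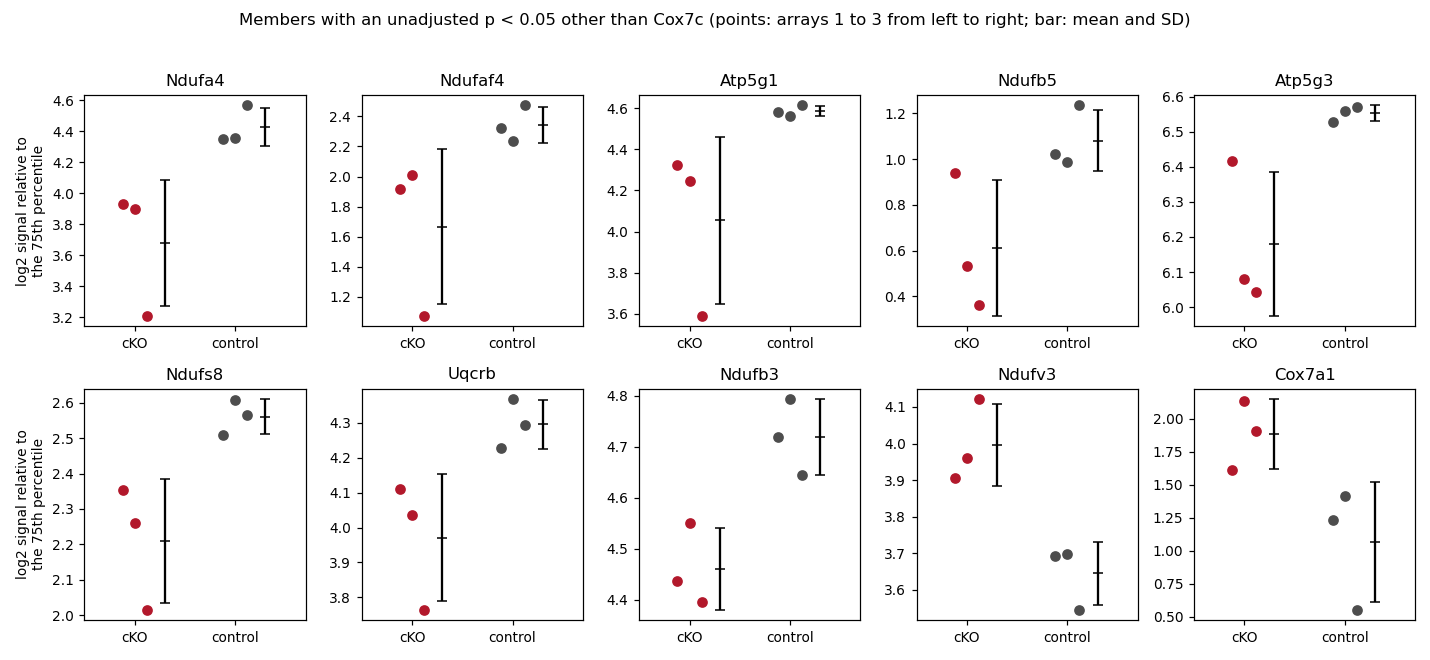
Signal by array (log2, relative to the 75th percentile of the array) of the 10 genes other than Cox7c with an unadjusted p under 0.05; the points of a group are arrays 1 to 3 from left to right, beside the mean and SD, and each gene has its own axis. In all 10 the groups do not overlap, which adds no support of its own, since the genes were picked by p on these same values. For Ndufa4, Ndufaf4 and Atp5g1 cKO array 3 lies well apart from the other cKO arrays. None of the 10 had an adjusted p under 0.05.

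Where a gene had several probes, most had the same direction. Of the 28 tested genes with more than 1 tested probe, 7 had probes that differed in the sign of the fold change, namely Atp5f1, Atp5s, Ndufa3, Ndufa7, Ndufab1, Ndufb8 and Sdha. Averaging all tested probes of each gene gave a median log2 fold change of -0.16, next to -0.15 with the brightest probe. Restricting the genes to the structural subunits, without assembly factors, associated factors and the pseudogene Atp5c1-ps, gave -0.16 over 76 genes.

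Other genes that serve the same machinery also lay below 0 more often than above it. Of 88 such genes in 6 lists, 84 were tested, and none passed the adjusted threshold, the lowest adjusted p being 0.0990. At an unadjusted p under 0.05, 10 of the 84 were lower and 1 was higher, beside 11.4% and 11.5% of all tested probes, and 64 had a fold change below 0, beside 55.2%. The 4 transcripts of the mitochondrial genome itself, which encode core subunits of complexes I, III, IV and V, all lay below 0, from ND4 at -0.31 ± 0.13 and ATP6 at -0.27 to COX2 at -0.07 ± 0.11. Among 31 tested assembly factors outside the naming rule, 21 lay below 0. The lowest was Cox18, which inserts a part of the mitochondrially encoded subunit COX2 into the membrane, with 1.66, 1.30 and 1.16 in cKO and 2.22, 2.20 and 2.07 in control cells. Its groups did not overlap and its difference was -0.79 ± 0.15 (unadjusted p = 0.00191, adjusted p = 0.0990). The highest was Surf1, another complex IV assembly factor, at 0.41 ± 0.20.

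Of the regulators of respiratory genes, 14 of 16 tested lay below 0, with a median of -0.29. Pprc1, a coactivator of the PGC-1 family, was lowest at -0.52 ± 0.29 (-0.19 without cKO array 3), and Tfam, which packages mitochondrial DNA, was highest at 0.19 ± 0.11. Named after their values were seen, Nrf1 (-0.39 ± 0.15), Gabpb1 (-0.32 ± 0.10) and Tfb2m (-0.32 ± 0.12) were the 3 regulators with an unadjusted p under 0.05, all lower on every cKO array. In all, 3 of 16 were thus lower at that threshold, beside 11.4% of all tested probes, and 7 of 16 were lower with groups that did not overlap, beside 20.7%. Ppargc1a, which encodes PGC-1α, was well above background on 1 array only. The electron carriers ranged from Dhodh, which feeds electrons from pyrimidine synthesis into the chain, at -0.68 ± 0.22 (-0.44 without cKO array 3) to Cyc1, cytochrome c1 of complex III, at 0.12 ± 0.29. In the citrate cycle 12 of 14 genes lay below 0 and Idh2 was highest at 0.22 ± 0.12, and among 13 genes of the outer membrane and protein import 9 did, from Hspd1 at -0.52 ± 0.22 (-0.27 without cKO array 3) to Vdac1 at 0.27 ± 0.14. cKO array 3 was the lowest array for 11 of these 14 and 9 of these 13 genes, beside 35.2% of all tested probes. It was also lowest for 5 of 6 electron carriers, 3 of 4 mitochondrial transcripts, 8 of 16 regulators and 12 of 31 assembly factors.

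Short sequence motifs were looked up in the promoters of the respiratory genes, and most of the genes held none of them. Whether the motifs bear on the fold changes was not tested. RefSeq windows of 300 bases, 250 before and 50 after a start site (GRCm38.p6), were found for 76 of the 92 genes. The core letters of the NRF1 motif, GCGCATGC on either strand, were in the windows of 12 of these 76 genes (15.8%), beside 3.05% of all genes with a window. The YY1 letters AAGATGGCG were in 10.5% (1.64% of all genes), the ETS letters CCGGAAGT, which GABPA binds, in 6.58% (4.31%), and the ERRα letters TCAAGGTCA in 2.63% (0.466%). In all, 26 of the 76 genes held at least 1 of the 4 motifs. The 12 genes with NRF1 letters had a median log2 fold change of -0.18, beside -0.15 for the 76 genes. A match is a description of letters and not a binding site.

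The 250 bases before the start site are shown for Cox7c, the gene whose probe fell, for Ndufaf4 and Atp5g3, which were lower at an unadjusted p under 0.05, and for Uqcr11, the complex III gene with the largest difference. They lie at chr13:86046796-86047045 (minus strand), chr4:24897833-24898082 (plus strand), chr2:73911327-73911576 (minus strand) and chr10:80406822-80407071 (minus strand) of GRCm38.p6. Each is written 5′ to 3′ with matches to the 4 motifs in capitals. Ndufaf4 holds the NRF1 letters on both strands in overlapping positions, Atp5g3 the ERRα letters on the reverse strand and Uqcr11 the ETS letters, and the window of Cox7c holds no match. Uqcr11 also holds the NRF1 letters across its start site, and Ndufaf4 a further copy after it, outside the bases shown. The 4 genes shown are a selection. Of the genes lower at an unadjusted p under 0.05, only Ndufaf4 and Atp5g3 had a match to any of the 4 motifs. None was found for Cox7c, Ndufa4, Ndufb3, Ndufb5, Ndufs8, Uqcrb or Atp5g1, and not every gene had a window.
Cox7c: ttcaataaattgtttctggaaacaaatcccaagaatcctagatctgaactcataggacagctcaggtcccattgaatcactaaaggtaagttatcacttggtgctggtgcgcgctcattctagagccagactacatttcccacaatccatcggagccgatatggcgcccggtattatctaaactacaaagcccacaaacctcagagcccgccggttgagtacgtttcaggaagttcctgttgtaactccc
Ndufaf4: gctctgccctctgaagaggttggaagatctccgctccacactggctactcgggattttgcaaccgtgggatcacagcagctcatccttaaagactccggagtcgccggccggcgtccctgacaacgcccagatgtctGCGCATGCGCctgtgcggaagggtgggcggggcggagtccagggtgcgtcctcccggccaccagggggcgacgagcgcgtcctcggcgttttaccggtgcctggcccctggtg
Atp5g3: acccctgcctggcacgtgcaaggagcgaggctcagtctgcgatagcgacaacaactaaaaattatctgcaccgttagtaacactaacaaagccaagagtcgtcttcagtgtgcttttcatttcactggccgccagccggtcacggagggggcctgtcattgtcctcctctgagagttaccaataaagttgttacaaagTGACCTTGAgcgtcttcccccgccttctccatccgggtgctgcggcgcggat
Uqcr11: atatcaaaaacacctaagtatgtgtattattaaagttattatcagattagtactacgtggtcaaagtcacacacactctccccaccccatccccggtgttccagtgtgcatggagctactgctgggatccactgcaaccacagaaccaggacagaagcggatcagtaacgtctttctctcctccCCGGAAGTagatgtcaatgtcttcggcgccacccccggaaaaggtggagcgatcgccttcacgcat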

How the data were processed

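Labelled RNA (Cy3) of 3 cKO and 3 control cultures was hybridised to Agilent arrays that cover the mouse genome. The deposited spot intensities are linear, background-subtracted by Agilent Feature Extraction per the file headers, and unscaled between arrays. The authors also made a log2 table, used as an alternative, of which 0 columns were unassigned. How it was normalized is not given in the sources used here. From each log2 processed signal, the 75th percentile over all non-control spots of its array was subtracted. Outlier spots were dropped after this step, and the remaining spots of the same probe were averaged. A probe was tested where at least 3 of the 6 arrays were well above background, which left 22281 probes. The groups were compared in limma 3.58.1 (R 4.3.3, moderated by eBayes), adjusting p-values by Benjamini-Hochberg over every tested probe, and calls were made under 0.05. Of the tested probes, 19 lacked a value on an array and were fitted without it. The paper states that cells of 3 control and 3 cKO mice were used. Nothing further states how far the replicates were independent, so p-values measure the spread between these samples. The number of arrays limits the precision.

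Gene names and positions (mm9) come from the array annotation, and 91 of 92 genes were matched to RefSeq by transcript, 3 under another symbol. Probes may also bind near-identical copies of a gene. The genes named are those past the adjusted threshold, the 3 largest differences in each direction per complex, all of complex II, chosen core subunits and isoform pairs, and the largest difference in each direction of the other lists. Some genes that this rule selects are not reported here by name and enter counts, ranges and medians only. The genes, lists and rules were chosen with earlier results of these data known. Same-numbered arrays deviated with correlations of -0.144, 0.00758 and -0.186, so replicate numbers did not pair the arrays. The fit was tested on simulated data. Alternatives changed the background correction (normexp, offset 50), the scaling, the filter, the test, array weights, the slide, the replicate number, the arrays kept, the probe and the threshold (adjusted p under 0.10). The structural-subunit set and the second probe at the Cox7c locus were added after the data were seen. Python 3.11.15, pandas 2.3.3, numpy 2.4.6 and matplotlib 3.10.9 were used for tables and plots.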

Additional observations from a re-analysis of the deposited data

How the results depend on the processing

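With 3 arrays a group, calls were easily lost. The count of genes lower at an adjusted p was 0 instead of 1 after normexp correction with 75th percentile scaling, without the filter on dim probes, in the test that the methods name, in a fit that included the slide, under the replicate block and after any 1 array was left out (0 to 0). The count lower at an unadjusted p, 9, was 2 after normexp with 75th percentile scaling, 2 after median scaling, 2 without the filter, 14 under array weights, 1 in the fit that included the slide, 2 under the replicate block, and 2 to 12 after arrays were left out, with 2 in the absence of control array 1, 2 or 3. The count higher at an unadjusted p, 2, was 0 after normexp with 75th percentile scaling, 4 after median scaling, 0 in the fit that included the slide, and 1 to 3 after arrays were left out. The median log2 fold change of the 87 genes was -0.38 after normexp with 75th percentile scaling, which moved the median of all tested probes from -0.04 to 0.11. It was -0.24 to -0.07 after arrays were left out and below 0 in every setting.

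Among the named genes, signs turned in the settings below, and none of these genes was called. After normexp with 75th percentile scaling the fold change was -0.17 for Atp5d, -0.0073 for Ndufaf3, -0.089 for Sdha, -0.18 for Uqcrfs1, -0.082 for Uqcrh and -0.19 for Cyc1. After normexp with quantile normalization it was 0.0014 for Cox4i1, 0.0045 for Cox6b1, 0.016 for Sdhd and 0.080 for Uqcrc2. After quantile normalization alone it was 0.015 for Cox6b1, 0.049 for Sdhd and 0.0087 for Uqcrc2. In the authors' table it was 0.024 for Cox6b1, 0.035 for Cox7a2, 0.041 for Sdhd and 0.0063 for Uqcrc2. Under array weights it was 0.044 for Cox6b1. In a fit that included the slide it was 0.012 for Cox4i1, 0.0037 for Cox6a1, 0.0075 for Cox6b1, 0.038 for Sdhd and 0.042 for COX2. Leaving out single arrays gave -0.0088 to 0.097 for Atp5d, -0.088 to 0.38 for Atp5s, -0.043 to 0.055 for Cox6b1, -0.095 to 0.13 for Cox7a2, -0.061 to 0.020 for Sdhd, -0.26 to 0.0031 for Uqcrc1, -0.021 to 0.14 for Uqcrfs1 and -0.085 to 0.38 for Cyc1. Cox18 passed the adjusted threshold under array weights (-0.80). The cause of these changes was not tested.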
